A study of Mus musculus with 114 samples.

Results

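The genes described here encode the nuclear subunits of respiratory complexes II to V. They were matched by symbol, with earlier results of these data known: Sdha to Sdhd for complex II, Uqcr genes and Cyc1 for complex III, Cox4 to Cox8 genes for complex IV and Atp5 genes for complex V. Of 29132 genes in the expression table, 47 matched, with 4 in complex II, 9 in complex III, 18 in complex IV and 16 in complex V. RNA was sequenced from the floating adipocyte fraction of collagenase-digested perigonadal fat of male C57BL/6J mice. Diets began at an age of 6 weeks and were control chow (CD) or high fat (HFD), and mice were taken after 8, 20 and 34 weeks of feeding. Each group held 6 mice, except for 8 in the 34 week CD group. All mice were of the same inbred strain and were fasted before harvest. Chow was either of a pair of control formulations, and which mouse ate which is not given in the sources used here. The 38 columns of the table each hold 1 mouse, for which 3 technical replicates had been merged.

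Complex II (succinate dehydrogenase) passes electrons from succinate to ubiquinone, complex III carries them on to cytochrome c, and complex IV (cytochrome c oxidase) hands them to oxygen. Complexes III and IV pump protons across the inner mitochondrial membrane, and complex V (ATP synthase) uses the returning protons to make ATP. In white adipocytes this chain supplies energy for lipid synthesis and secretion, whereas in brown adipocytes uncoupling protein Ucp1 lets the protons return as heat. Complexes III, IV and V also hold subunits made from mitochondrial DNA, and none of the 13 mitochondrial-encoded subunits of the chain was analysed here.

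Reads assigned to genes ranged from 9275711 to 15480388 per mouse, so that 1 read equalled 0.0646 to 0.108 CPM (reads scaled to a common library total). Every 8 week CD mouse (10562845 to 12611013 reads) was below every 8 week HFD mouse (13201234 to 15480388 reads). The 9 adipocyte markers were abundant in every mouse, summing to 16540 to 68530 CPM, with the lowest value in HFD mouse 3 at 34 weeks, where 13 macrophage markers summed to 14900 CPM. The 13 macrophage markers measured, of 14 listed, summed to 470 to 1901, 1087 to 3697 and 1244 to 13150 CPM in CD mice at 8, 20 and 34 weeks and to 1218 to 3373, 4754 to 9715 and 5418 to 16090 CPM in HFD mice, so the floating fraction was not free of other cells. Mouse 5 of the 34 week CD group stood apart with the lowest adipocyte marker mean of that group (10.87 on the log2(CPM + 1) scale, others 11.59 to 12.16) and its highest macrophage mean (8.97, others 5.78 to 8.05). The only skeletal muscle marker that passed the filter on low values was Acta1, and no testis or epididymis marker passed it. In such bulk samples, fewer cells of a type and less RNA per cell cannot be told apart.

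The stretch before the start of transcription is shown for a few members because their RNA levels are described below and because they hold different motifs. Sequences are from RefSeq on the GRCm38.p6 build, 250 bases long and written 5′ to 3′ on the strand of the gene, with motif matches in capitals. Atp5l (subunit g of ATP synthase, chr9:44920743-44920992, minus strand) and Cox6a1 (the widely expressed isoform of subunit 6a of complex IV, chr5:115348959-115349208, minus strand) held matches. Cox7a1 (chr7:30183921-30184170, plus strand) and Cox7a2l (chr17:83514334-83514583, minus strand) held none. They are shown as the members called higher on HFD by the limma fit of all mice without covariates, weights or scaling factors. Members called lower on HFD, such as Sdha, Atp5c1, Uqcrfs1 and Cox5b, also held none.
Atp5l: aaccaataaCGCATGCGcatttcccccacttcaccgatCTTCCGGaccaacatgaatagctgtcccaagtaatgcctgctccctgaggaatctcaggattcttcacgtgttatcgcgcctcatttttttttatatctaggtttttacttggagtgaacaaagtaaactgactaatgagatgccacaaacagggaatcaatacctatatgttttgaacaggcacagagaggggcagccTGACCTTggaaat
Cox6a1: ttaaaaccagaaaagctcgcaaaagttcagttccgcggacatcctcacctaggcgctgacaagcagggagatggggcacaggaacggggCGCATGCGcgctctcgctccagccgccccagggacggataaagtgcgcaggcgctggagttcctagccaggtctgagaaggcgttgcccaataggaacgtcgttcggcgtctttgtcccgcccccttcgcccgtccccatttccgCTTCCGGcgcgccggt
Cox7a1: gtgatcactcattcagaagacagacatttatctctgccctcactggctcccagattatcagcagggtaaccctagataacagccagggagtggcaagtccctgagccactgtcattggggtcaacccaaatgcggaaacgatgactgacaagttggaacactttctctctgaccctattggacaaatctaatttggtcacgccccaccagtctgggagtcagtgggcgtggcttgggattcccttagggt
Cox7a2l: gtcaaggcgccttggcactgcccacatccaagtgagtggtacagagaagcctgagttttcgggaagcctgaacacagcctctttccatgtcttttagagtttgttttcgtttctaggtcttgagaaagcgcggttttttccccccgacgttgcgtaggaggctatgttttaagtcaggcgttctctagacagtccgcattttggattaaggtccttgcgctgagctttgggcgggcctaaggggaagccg
Capitals mark the core of the NRF1 site (CGCATGCG), the ETS core bound by GABP (CCGGAAG) and the site of the estrogen-related receptors, ERR (AAGGTCA), each searched on both strands; the YY1 core (ATGGCGG) was searched too. Windows of 300 bases, which add 50 bases after the start, were found for 35 members (38 windows). NRF1 cores were in 18.42% of member windows and in 1.87% of 32851 windows of all genes. For the ETS core the shares were 31.58% and 8.86%, for the ERR site 13.16% and 4.72%, and for the YY1 core 5.26% and 4.05%. No matches shared bases with each other. By complex, the NRF1 core was in 0 of 3 windows of complex II, 2 of 5 of complex III, 1 of 13 of complex IV and 4 of 17 of complex V. A match describes letters in the window and no binding.

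Of the 47 genes, 41 had a mean log2(CPM + 1) above 2.0 over all mice and were tested with 10343 genes in all: 4 of complex II, 9 of III, 13 of IV and 15 of V. The 6 left out were scarce. Cox4i2, a subunit 4 isoform of lung and low-oxygen tissue, ranged from 0 to 1.47 CPM, and Cox6a2, the heart and muscle isoform of subunit 6a, from 0 to 1.89 CPM. The testis isoforms Cox6b2, Cox7b2 and Cox8c reached 1.34, 0.172 and 0.258 CPM, and the pseudogene Atp5l-ps1 reached 0.428 CPM. Cox7a1 was just above the bound with a mean of 2.03, passing through the groups in which it was high, and Cox6b2 was the highest gene below it at 0.71. Per kilobase of exon, in the 8 week CD group the level was 755 CPM for Cox8a, 466 for Atp5b, 197 for Atp5c1 and 167 for Sdha, against 1.73 for Cox7a1. The annotated exons of these genes spanned 619, 4237, 1908, 4126 and 535 bases in turn, so their order depends on the annotation.

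The first question was how HFD altered these genes at each time. At 8 weeks few members differed by diet, whereas at 20 and 34 weeks most differences were decreases. At 8 weeks, 2 of 41 members were higher and 1 lower on HFD (limma, Benjamini-Hochberg adjusted p below 0.05), where 29.8% of all genes tested were higher and 15.1% lower. At 20 weeks, 2 members were higher and 19 lower, against 38.3% and 18.7% of all genes. At 34 weeks 0 members were higher (limma; 0 at an unadjusted p below 0.05, 0 by edgeR and 0 by DESeq2) and 28 were lower, against 27.5% and 15.7% of all genes. The median log2 difference of the 41 members was 0.07, -0.32 and -0.36 at 8, 20 and 34 weeks, while that of all genes was 0.11, 0.14 and 0.07. CPM differences are relative to all other transcripts, and with TMM factors those all-gene medians became 0.00, -0.05 and -0.02 and the share of higher genes among called genes changed from 66.3, 67.1 and 63.6% to 49.8, 46.1 and 50.1%. With TMM, 36 members were lower at 20 weeks and 33 at 34 weeks, against 31.6% and 22% of all genes.

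**Figure D1:**
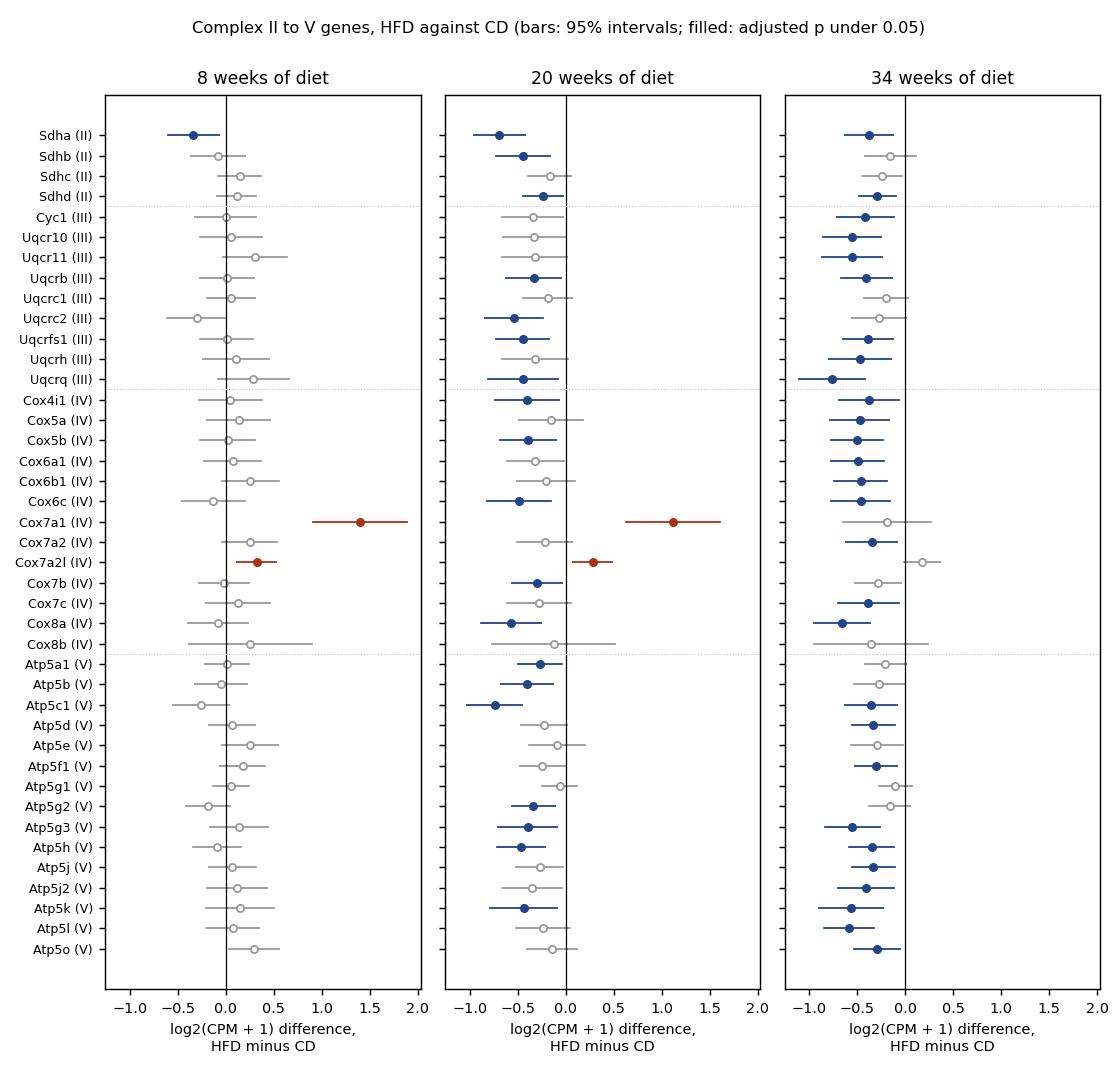
Difference in log2(CPM + 1) between HFD and CD (x axis) for each of the 41 tested members (y axis, complex in parentheses) at 8, 20 and 34 weeks, with bars for the 95% interval and colour for the limma call. Differences lie around 0 at 8 weeks except for Cox7a1 at 1.39, and most lie to the left of 0 at 20 and 34 weeks.

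The fall was spread over all 4 complexes. At 20 weeks the lower members were 3 of 4 in complex II, 4 of 9 in III, 5 of 13 in IV and 7 of 15 in V. At 34 weeks they were 2 of 4, 7 of 9, 9 of 13 and 10 of 15. The mean log2(CPM + 1) of the 41 members ran from 7.13 to 7.66 with a median of 7.36 in 20 week CD mice, and from 7.00 to 7.23 with a median of 7.08 in 20 week HFD mice. At 34 weeks it ran from 7.23 to 8.04 (median 7.71) on CD and from 6.87 to 7.61 (median 7.43) on HFD. The groups overlapped at both times. The spread was far wider at 34 weeks, with an SD of 0.32 on CD and 0.33 on HFD, against 0.17 and 0.08 at 20 weeks. HFD mice 2 and 3 were the low ones at 34 weeks (6.89 and 6.87), and the other 4 lay between 7.40 and 7.61. Their macrophage marker means were 8.80 and 9.15 and their adipocyte marker means 10.40 and 10.24, and HFD mouse 4, with 9.01 and 10.49, had a member mean of 7.51.

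**Figure D2:**
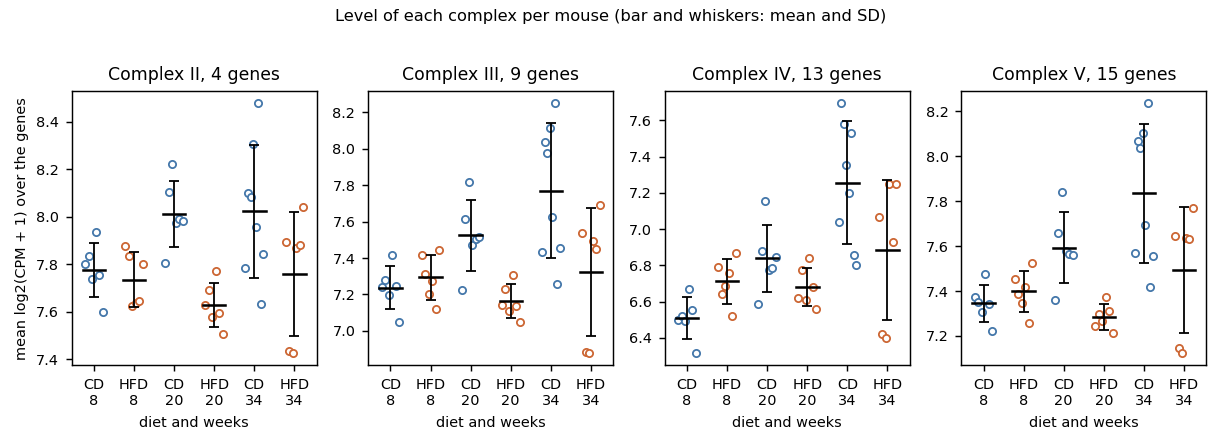
Mean log2(CPM + 1) over the tested genes of each complex (y axis) for every mouse, by diet and weeks (x axis), with the group mean and SD. In every complex the 34 week CD mice are the highest on average and the 34 week groups are the most scattered.

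The 34 week count depended on the pooled spread and on single mice. When the 34 week mice were fitted without the others, only Uqcrq, Cox8a and Atp5l passed the limma test, or 3 of 41 where 7.39% of all genes were lower, so that the members' count was near that of all genes. Leaving out HFD mouse 2 or mouse 3 left 10 lower members each, where 12.2% and 11.3% of all genes were lower. Without CD mouse 5, 29 members were lower and 1 was higher (Cox7a2l), against 18.4% and 31.2% of all genes. At 20 weeks, leaving out CD mouse 3 left 10 lower members, CD mouse 2 left 11 and HFD mouse 6 left 11, against 17.5%, 17.1% and 16.9% of all genes.

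Other cells moved with diet alongside the complexes. Macrophage markers were higher on HFD for 8, 9 and 11 of 13 genes and lower for 0, 1 and 0 at 8, 20 and 34 weeks. Their median log2 differences were 1.50, 2.32 and 1.72. Lipid-associated macrophage markers had medians of 2.68, 5.01 and 2.30, and endothelial markers 1.35, 1.09 and 1.19. Progenitor and fibroblast markers were higher for 3, 5 and 2 of 5 genes, with medians of 1.12, 1.56 and 0.84. Adipocyte markers were lower for 2, 7 and 8 of 9 genes and higher for 1, 1 and 0, with medians of -0.31, -0.75 and -0.62. Of all genes, 29.8, 38.3 and 27.5% were higher and 15.1, 18.7 and 15.7% lower at the 3 times. In a fit that held the mean of the 13 macrophage markers constant, 1 member was higher (Cox7a1) and 2 lower (Sdha, Atp5c1) at 20 weeks and only Atp5l was lower at 34 weeks. In the same fit 23% of all genes were higher and 10.2% lower at 20 weeks, and 5.74% and 3.47% at 34 weeks, so that the members' counts of decreases were near or below those of all genes. The 20 week groups had no common macrophage range to compare, since CD mice ended at 7.64 and HFD mice began at 7.74. The part of other cells in the decreases was not tested beyond this.

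**Figure D3:**
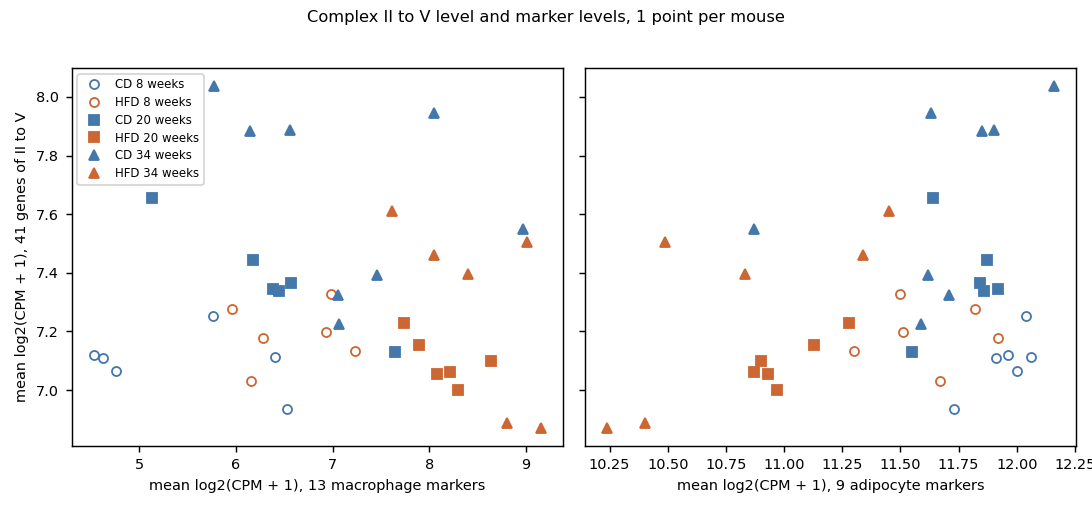
Mean log2(CPM + 1) of the 41 members (y axis) against that of 13 macrophage markers and of 9 adipocyte markers (x axes), 1 point per mouse, coloured by group. At 34 weeks CD mouse 5 and HFD mouse 4 have macrophage means of 8.97 and 9.01 and member means of 7.55 and 7.51, whereas HFD mouse 3 has 9.15 and 6.87.

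In complex II, 1 subunit passed as lower on HFD at every time, although its 8 and 34 week calls did not hold in all fits. Sdha, the flavoprotein subunit that oxidises succinate, was at 613 CPM (lowest), 692 (median) and 742 (highest) in 8 week CD mice and at 458, 536 and 689 in HFD mice. At 20 weeks it was at 646, 790 and 962 on CD and 429, 468 and 634 on HFD, and at 34 weeks at 488, 588 and 819 on CD and 369, 482 and 596 on HFD. HFD medians were the lower ones each time, and the groups were fully separate at 20 weeks. The log2 difference was -0.34 ± 0.13 (SE) at 8 weeks, -0.69 ± 0.13 at 20 weeks and -0.37 ± 0.12 at 34 weeks, with limma adjusted p of 0.0352, 4.27e-05 and 0.0142. Sdha was the only member lower at all 3 times.

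Sdhb, the iron-sulfur subunit, separated the diets at 20 weeks, with 163 to 247 CPM on CD and 133 to 154 on HFD (log2 difference -0.44 ± 0.14, limma adjusted p = 0.00679). At 34 weeks its medians were 171 CPM on CD and 172 CPM on HFD, and the difference of -0.15 ± 0.13 did not pass. Sdhc and Sdhd anchor the complex in the membrane. Sdhd fell at 20 weeks (-0.24 ± 0.10, adjusted p = 0.0476) from a median of 170 to 145 CPM and at 34 weeks (-0.29 ± 0.10, 0.0145) from 203 to 175 CPM. Sdhc did not pass at any time, with differences of 0.14, -0.16 and -0.24.

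In complex III the member with the largest decrease was a core subunit at 20 weeks and a small accessory subunit at 34 weeks. Uqcrc2, a core subunit, was at 245 CPM (lowest), 293 (median) and 363 (highest) on CD and 178, 198 and 242 on HFD at 20 weeks. No HFD mouse reached the lowest CD mouse, and the difference was -0.54 ± 0.15 (adjusted p = 0.00266). At 34 weeks the same gene overlapped between diets, with medians of 243 and 226 CPM and a difference of -0.27 ± 0.14 that did not pass. Uqcrfs1, the Rieske iron-sulfur protein, fell by 0.45 ± 0.14 at 20 weeks and 0.39 ± 0.13 at 34 weeks (adjusted p = 0.00613 and 0.0145), from medians of 211 to 150 and 230 to 188 CPM. Cyc1, cytochrome c1, was at -0.34 ± 0.16 (adjusted p = 0.0605) at 20 weeks and fell by 0.42 ± 0.15 (0.0216) at 34 weeks, where CD mice ran from 162 to 387 CPM and HFD mice from 127 to 215 CPM. Uqcrc1, the other core subunit, did not pass at any time, with differences of 0.06, -0.19 and -0.20.

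Uqcrq, a small subunit near the ubiquinone site, had the largest decrease of all members at 34 weeks. It was at 143 CPM (lowest), 220 (median) and 330 (highest) on CD and 85.6, 144 and 181 on HFD. The groups overlapped. The difference was -0.76 ± 0.17 (adjusted p = 0.000771). At 8 weeks the medians were 111 CPM on CD and 139 CPM on HFD (0.29 ± 0.18, not passing), and at 20 weeks 147 and 108 CPM (-0.44 ± 0.18, adjusted p = 0.0366).

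**Figure D4:**
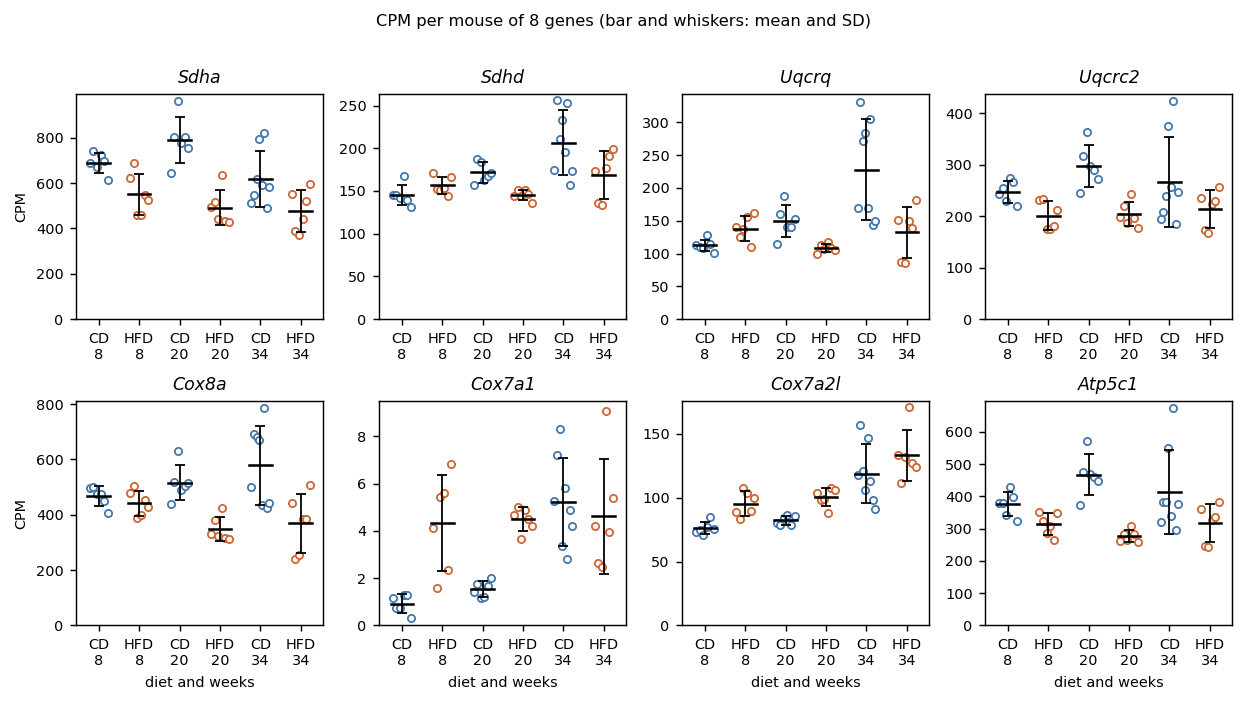
CPM (y axes, starting at 0) of 8 members in every mouse by diet and weeks (x axis), with the group mean and SD. Sdha, Uqcrc2, Cox8a and Atp5c1 are lower on HFD in all 6 mice at 20 weeks, Cox7a1 is higher on HFD at 8 and 20 weeks and overlaps at 34 weeks, and Cox7a2l is higher on HFD at 8 and 20 weeks.

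In the limma fit of all mice without covariates, weights or scaling factors, only complex IV held members called higher on HFD, Cox7a1 and Cox7a2l. Other members of it fell. Uqcr11 and Uqcrq of complex III and Atp5e and Atp5o of complex V passed as higher at 8 weeks in other limma fits. These held the macrophage mean constant or used the 8 week mice alone, where 22.8% and 36.3% of all genes were higher. Cox8a, the widely expressed isoform of subunit 8, was at 440 CPM (lowest), 510 (median) and 629 (highest) on CD and 312, 328 and 423 on HFD at 20 weeks, and at 424, 586 and 785 against 239, 383 and 508 at 34 weeks. All HFD mice were below all CD mice at 20 weeks, and the groups overlapped at 34 weeks. The differences were -0.57 ± 0.15 and -0.66 ± 0.14 (adjusted p = 0.00211 and 0.000606). At 8 weeks the difference was -0.08 ± 0.15 and did not pass. Cox5b fell at 20 weeks (-0.39 ± 0.14, adjusted p = 0.0186) from a median of 173 to 131 CPM and at 34 weeks (-0.50 ± 0.13, 0.00306) from 223 to 173 CPM. Cox4i1, the main subunit 4, fell from 520 to 392 CPM (-0.40 ± 0.16, 0.0338) and from 627 to 529 CPM (-0.38 ± 0.15, 0.0433). Cox5a, Cox6a1 and Cox7a2 passed only at 34 weeks (-0.47 ± 0.15, -0.49 ± 0.14 and -0.35 ± 0.13, adjusted p = 0.0126, 0.00424 and 0.0317).

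Cox7a1 is the heart, muscle and brown fat isoform of subunit 7a, and it moved against the others. It was at 0.317 CPM (lowest), 0.952 (median) and 1.30 (highest) in 8 week CD mice and at 1.59, 4.79 and 6.85 in HFD mice. At 20 weeks it was at 1.18, 1.54 and 2.01 on CD and 3.65, 4.60 and 5.02 on HFD. The diets were fully separate at both times, and the differences were 1.39 ± 0.24 and 1.12 ± 0.24 (limma adjusted p = 3.78e-05 and 0.000185). With a mean of 2.03, Cox7a1 passed the filter on low values only through the groups in which it was high. Its p-values carry that selection, and its CD values at these times rest on few reads. At 34 weeks it was at 2.79, 5.06 and 8.31 on CD and 2.48, 4.07 and 9.08 on HFD. There the groups overlapped, with both medians near those of the earlier HFD groups, and the difference was -0.19 with a 95% interval from -0.64 to 0.27. The change of the diet difference between 8 and 34 weeks was -1.58 ± 0.33 (adjusted p = 0.000603), and between 20 and 34 weeks -1.31 ± 0.33 (0.0101). Per kilobase, Cox7a1 made up a median of 1.30, 5.18, 1.90, 5.75, 5.22 and 4.14% of Cox7a1 plus Cox7a2 in the CD and HFD groups at 8, 20 and 34 weeks in turn, so that Cox7a2, the widely expressed isoform, remained the main one.

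Cox7a2l was at 71.1 CPM (lowest), 75.0 (median) and 84.6 (highest) on CD and 83.5, 94.7 and 108 on HFD at 8 weeks. Only at the edge did the groups overlap. At 20 weeks they did not, with 78.3 to 86.8 CPM on CD and 87.9 to 108 on HFD. The differences were 0.32 ± 0.10 and 0.28 ± 0.10 (limma adjusted p = 0.00948 and 0.0154). Neither passed with TMM or median-of-ratios scaling, with edgeR or DESeq2, or with the macrophage mean held constant. Cox8b, the heart, muscle and brown fat isoform of subunit 8, did not pass in any diet comparison, with differences of 0.25, -0.12 and -0.35. Single mice stood out there: CD mouse 3 at 20 weeks held 32.9 CPM (the next mouse 9.68) and HFD mouse 4 at 34 weeks 29.4 CPM. That HFD mouse also held the highest Cox7a1 (9.08 CPM), Cox6a2 (1.89), Ucp1 (45.5) and Cidea (25.2), while the CD mouse had Cidea at 14.0 and Ucp1 at 0.221 CPM. Whether other fat contributed to these values was not tested.

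In complex V the largest decrease was in the central stalk at 20 weeks and in the membrane part at 34 weeks. Atp5c1, the gamma subunit of the central stalk, was at 373 CPM (lowest), 465 (median) and 571 (highest) on CD and 259, 274 and 309 on HFD at 20 weeks. The diets did not overlap. It had the largest decrease of that time (-0.74 ± 0.14, adjusted p = 5.24e-05), and at 34 weeks it fell by 0.36 ± 0.13 (0.0290) with overlap, from a median of 379 to 331 CPM. Atp5b, the catalytic beta subunit, was at 1894, 2240 and 2843 CPM on CD and 1575, 1702 and 1998 CPM on HFD at 20 weeks (-0.40 ± 0.14, adjusted p = 0.0118). At 34 weeks it was at -0.27 ± 0.13 and did not pass. Atp5a1, the alpha subunit, passed at 20 weeks only (-0.27 ± 0.11, adjusted p = 0.0426), and its estimate changed sign to 0.01 when the macrophage mean was held constant.

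Atp5l, subunit g in the membrane, was at 39.7 CPM (lowest), 61.2 (median) and 88.3 (highest) on CD and 30.6, 38.2 and 52.2 on HFD at 34 weeks. The groups overlapped. The difference was -0.59 ± 0.13 (adjusted p = 0.000661), and it passed in all 49 alternatives. Atp5g1, Atp5g2 and Atp5g3 encode the same mature c subunit of the rotor. Atp5g3 fell by 0.39 ± 0.15 at 20 weeks and 0.55 ± 0.14 at 34 weeks (adjusted p = 0.0246 and 0.00232), from medians of 366 to 284 and 529 to 357 CPM. Atp5g2 fell at 20 weeks (-0.33 ± 0.11, 0.0113), and Atp5g1 passed in no diet comparison, with differences of 0.05, -0.06 and -0.10. Per kilobase of exon Atp5g3 made up a median of 82.8% of the 3 in 8 week CD mice and 80.5% in 34 week HFD mice. The annotated exons spanned 4912, 1675 and 2181 bases for Atp5g1, Atp5g2 and Atp5g3, so these shares depend on the annotation. These genes and several small subunits have near-identical copies in the genome, and reads that fit more than 1 copy may have been lost, so their levels are uncertain.

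Several of these calls depended on single mice. Leaving out HFD mouse 2 or HFD mouse 3 of the 34 week groups ended the 34 week calls of Sdha, Sdhd, Uqcrfs1 and Cox5a, with limma adjusted p of up to 0.0600, 0.0662, 0.0667 and 0.0568. The same mice, or CD mouse 4 or 6, ended those of Cyc1 (up to 0.0840) and Atp5c1 (up to 0.103), and 6 and 7 single mice ended those of Cox7a2 (up to 0.124) and Cox4i1 (up to 0.169). At 20 weeks, leaving out CD mouse 3 ended the call of Cox5b (0.0565), and CD mouse 2, CD mouse 3 or HFD mouse 6 that of Atp5g3 (up to 0.0583). The 20 week calls of Sdhd, Atp5a1, Uqcrq and Cox4i1 ended when any 1 of 21, 8, 7 and 5 mice, respectively, was left out, with adjusted p of up to 0.0970, 0.113, 0.0953 and 0.0925. At 8 weeks the call of Sdha ended when any 1 of 7 mice was left out (up to 0.0964), and it also ended with no filter on low values and with the macrophage mean held constant, where the difference was -0.11 (adjusted p = 0.449). Other calls ended for no left-out mouse. At 20 weeks these were Sdha, Sdhb, Uqcrfs1, Uqcrc2, Cox7a1, Cox8a, Atp5b, Atp5c1 and Atp5g2. At 34 weeks they were Uqcrq, Cox5b, Cox6a1, Cox8a, Atp5g3 and Atp5l, and at 8 weeks Cox7a1. With the macrophage mean held constant, only those of Sdha, Cox7a1, Atp5c1 and Atp5l among them still passed. Fitting the 34 week mice alone ended the 34 week calls of Cox5b, Cox6a1 and Atp5g3 (limma adjusted p = 0.0605, 0.0731 and 0.0584). Array weights also ended those of Cox5b and Atp5g3 (limma adjusted p = 0.0970 and 0.120).

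Diets that did not overlap were counted as well. At 20 weeks 2 members lay wholly above (Cox7a1 and Cox7a2l) and 10 wholly below, where 26.1% and 11.1% of all genes did. At 8 weeks 1 lay above and 0 below (15.7% and 7.14% of all genes), and at 34 weeks 0 and 0 (1.47% and 0.986%).

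The next question was how the levels changed with time on each diet. In CD mice the complexes rose. At 34 against 8 weeks 35 of 41 members were higher and 0 lower (limma; 0 lower at an unadjusted p below 0.05, 0 by edgeR and 0 by DESeq2), against 40.1% higher and 24.6% lower of all genes, with a median of 0.57 for members and 0.13 for all genes. With TMM factors 27 were higher, against 32.5% higher and 31.4% lower of all genes. By complex the 35 higher members without TMM factors were 2 of 4, 8 of 9, 12 of 13 and 13 of 15. Largest were Cox7a1 (1.67 ± 0.22), Cox8b (1.37 ± 0.29), Uqcrq (0.94 ± 0.17) and Cox5a (0.93 ± 0.15), with limma adjusted p of 2.36e-07, 0.000148, 1.81e-05 and 4.61e-06. Cox5a went from 96.4 to 110 CPM at 8 weeks to 120 to 320 CPM at 34 weeks without overlap. The 6 that did not pass were Sdha, Sdhb, Uqcrc2, Cox8a, Atp5b and Atp5c1, and Sdha had the lowest estimate (-0.17 ± 0.12). Other cells moved over the same time in CD mice: 10 of 13 macrophage markers (median 1.90) and 7 of 8 lipid-associated macrophage markers (median 2.62) were higher, and 4 of 9 adipocyte markers were lower. With the macrophage mean held constant, 40 of 41 members were higher, against 30.6% of all genes. Age, weeks on chow and any difference in handling between times cannot be told apart.

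At 20 against 8 weeks in CD mice all 41 estimates were above 0, with a median of 0.27, yet 0 passed (limma; 14 at an unadjusted p below 0.05, 0 by edgeR and 2 by DESeq2), against 1.7% higher and 1.88% lower of all genes. In HFD mice few members passed between times. At 20 against 8 weeks 0 passed (limma; 1 at an unadjusted p below 0.05, 0 by edgeR and 0 by DESeq2), against 21.2% higher and 15.3% lower, with a median of -0.12. At 34 against 8 weeks 4 members were higher, Cox7a2l (0.47 ± 0.10), Cox8b (0.77 ± 0.31), Atp5g1 (0.63 ± 0.09) and Atp5g2 (0.27 ± 0.11), with limma adjusted p of 0.000220, 0.0394, 2.92e-06 and 0.0436, against 31.7% higher and 20.8% lower. With TMM factors 2 members were higher and 1 lower, against 25.6% and 27.2% of all genes.

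The change of the diet difference itself was then tested. From 8 to 34 weeks 17 members shifted downward and 0 upward (limma; 0 upward at an unadjusted p below 0.05, 0 by edgeR and 0 by DESeq2), against 15.9% and 13% of all genes, with 1 in complex II, 3 in III, 7 in IV and 6 in V. Cox7a1 shifted most, followed by Uqcrq (-1.05 ± 0.25, adjusted p = 0.00210). From 8 to 20 weeks 0 passed (limma; 15 at an unadjusted p below 0.05, 0 by edgeR and 1 by DESeq2), against 1.67% downward and 2.81% upward, although all 41 estimates were below 0 with a median of -0.36. From 20 to 34 weeks Cox7a1 alone shifted, against 6.31% downward and 4.22% upward. The 8 week CD group enters both the time and the diet comparisons, so these values share mice.

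Members with shorter coding sequences tended to have larger increases in CD mice. Across the 41 members the coding length correlated with the 34 against 8 week difference in CD mice (Pearson r = -0.637, Spearman rho = -0.614), where it was -0.288 and -0.356 over 10182 genes. For the diet difference r was -0.404 over members and -0.105 over all genes at 8 weeks, -0.241 and 0.0517 at 20 weeks, and 0.388 and 0.124 at 34 weeks, so its sign differed between times. Genes share libraries and are not independent, and these values are a description. Divided at 600 bases, a bound chosen after the values were seen, 29 of 30 shorter members were higher in CD mice at 34 weeks (median 0.64) and 6 of 11 longer ones (median 0.26). Of all genes, 867 of 1223 shorter and 3237 of 8959 longer ones were higher. RNA integrity was not analysed here, and its part was not tested.

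**Figure D5:**
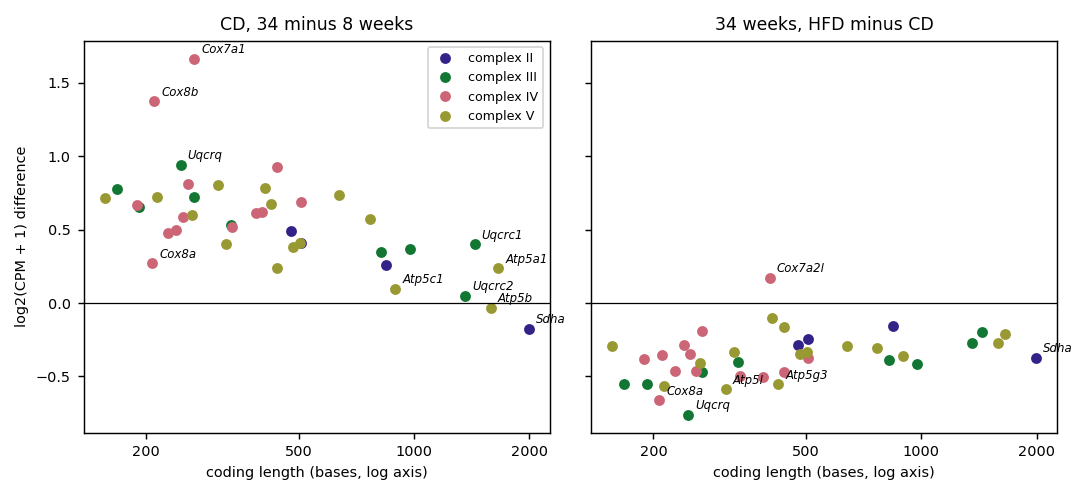
Difference in log2(CPM + 1) (y axes) against coding length in bases (x axes, log scale) for the 41 members, coloured by complex, for CD mice at 34 minus 8 weeks and for HFD minus CD at 34 weeks. Shorter members tend to lie higher in the first panel (r = -0.637) and lower in the second (r = 0.388).

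Genes that work with these complexes were compared from lists chosen with the members. Complex I, which feeds electrons from NADH, was counted in the same way. Of 37 subunits tested 3 were higher at 8 weeks, 21 lower at 20 weeks and 35 lower at 34 weeks, with medians of 0.03, -0.36 and -0.45. Ndufa11 led the increases at 8 weeks (0.55 ± 0.14) and Ndufb9 and Ndufb10 the decreases at 20 and 34 weeks (-0.69 ± 0.16 and -0.69 ± 0.15), with limma adjusted p of 0.00196, 0.000637 and 0.000620. Electron carriers had 1 higher and 1 lower gene of 13 at 8 weeks, and 5 and 7 lower at 20 and 34 weeks. Of all genes, 29.8% were higher and 15.1% lower at 8 weeks, and 18.7% and 15.7% were lower at 20 and 34 weeks. The 8 week counts of both lists were below those shares. The largest falls were in the ubiquinone synthesis genes Coq5 at 20 weeks (-0.56 ± 0.11) and Coq7 at 34 weeks (-0.67 ± 0.17).

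Assembly factors were counted next. Of 21 factors of complex IV, 9 were higher at 8 weeks, 5 higher and 4 lower at 20 weeks, and 6 lower at 34 weeks. The shares of all genes were 29.8% higher at 8 weeks, 38.3% higher and 18.7% lower at 20 weeks, and 15.7% lower at 34 weeks, so the 20 week counts were near or below those of all genes. Cmc2 rose by 1.21 ± 0.17 at 8 weeks and 0.63 ± 0.17 at 20 weeks, Surf1 fell by 0.48 ± 0.10 at 20 weeks, and Cox18, which inserts a subunit into the membrane, fell by 0.51 ± 0.13 at 34 weeks. For complex III, 2 of 4 factors were higher and 1 lower at 8 weeks, 2 lower at 20 weeks and 1 lower at 34 weeks. With 15.1% of all genes lower at 8 weeks and the other shares as above, 4 factors are too few to compare. Among them Uqcc2 rose by 0.67 ± 0.16 at 8 weeks and fell by 0.37 ± 0.15 at 34 weeks, and Ttc19 fell by 0.45 ± 0.13 and 0.70 ± 0.13 at 8 and 20 weeks. Of 2 complex II factors only 1 passed, lower at 34 weeks.

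Atpif1, which inhibits ATP hydrolysis by complex V, rose at all 3 times. Its CPM ran from 13.9 to 18.0 on CD and 21.7 to 35.0 on HFD at 8 weeks, from 14.4 to 26.2 and 35.7 to 65.6 at 20 weeks, and from 19.5 to 84.4 and 52.9 to 113 at 34 weeks. The diets were separate at 8 and 20 weeks and overlapped at 34 weeks. The differences were 0.70 ± 0.25, 1.58 ± 0.25 and 0.94 ± 0.23 (adjusted p = 0.0205, 2.66e-06 and 0.00170). Tmem70, an assembly factor, rose by 0.31 ± 0.11 at 8 weeks and fell by 0.32 ± 0.11 and 0.45 ± 0.10 later. In all, 3, 2 and 1 of 4 such factors were higher and 0, 2 and 2 lower. Of all genes, 29.8, 38.3 and 27.5% were higher and 15.1, 18.7 and 15.7% lower at 8, 20 and 34 weeks.

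Of 14 regulators of respiratory genes, 7 were lower at 8 weeks, 1 higher and 4 lower at 20 weeks, and 3 higher and 1 lower at 34 weeks. The shares of all genes were 29.8, 38.3 and 27.5% higher and 15.1, 18.7 and 15.7% lower at 8, 20 and 34 weeks. The 34 week counts of regulators were near or below those shares. Ppargc1a, the coactivator PGC-1α, had medians of 10.2 and 5.10 CPM on CD and HFD at 8 weeks, 8.63 and 3.74 at 20 weeks and 4.54 and 3.68 at 34 weeks. It fell by 0.84 ± 0.21 and 0.77 ± 0.21 at 8 and 20 weeks and was at -0.12 ± 0.19 at 34 weeks. Esrra rose by 0.31 ± 0.11 at 20 weeks, Gabpb1, a GABP subunit, rose by 0.49 ± 0.15 at 34 weeks, and the corepressor Nrip1 fell by 0.67 ± 0.19 there. Of 16 mitochondrial content markers 2, 1 and 1 were higher and 0, 5 and 6 lower at the 3 times. Cs, citrate synthase, fell most at 20 weeks (-0.41 ± 0.13), the chaperonin Hspd1 fell most at 34 weeks (-0.51 ± 0.10), and Vdac2, an outer membrane pore, rose at 20 and 34 weeks (0.49 ± 0.11 and 0.40 ± 0.10).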

How the data were processed

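The authors sequenced polyA RNA and deposited CPM per gene for each mouse. According to the submitters' notes, reads were aligned to mm10 with STAR (versions 2.5 and 2.5.2b) and counted on GENCODE vM2 with featureCounts of Subread 1.5.1. The deposited columns all sum to the same total, although TMM normalisation was described, and all values were whole multiples of 1 read (within 0.1 reads). Depth was 9275711 to 15480388 reads per mouse. Groups followed the labels. With R 4.3.3, log2(CPM + 1) was fitted with limma 3.58.1 (trended variance) over all 6 groups together, with 32 residual degrees of freedom, for genes with a mean above 2.0. P-values were two-sided and Benjamini-Hochberg adjusted over 10343 genes, and the test was checked on simulated data. Differences are on the log2(CPM + 1) scale and understate changes of low genes. The whole reads were also tested with edgeR 4.0.16 and DESeq2 1.42.0. Members, lists and the naming rule (catalytic subunits, isoform pairs, and the largest changes per complex or list) were chosen with earlier results of these data known. Per-kilobase levels used the union of exons over all transcripts of a gene in a later GENCODE annotation of GRCm38. Other alternatives were TMM and median-of-ratios factors, other filters and pseudocounts, array weights, a macrophage covariate and leaving out mice.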

Additional observations from a re-analysis of the deposited data

Results flagged for a closer look

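Single mice far from the rest of their group were found in 6 of 174 groups tested (1 in 20 is found by chance). Mouse 6 of the 8 week CD group was the lowest for Cyc1 (145 CPM, next 176), Cox5b (116, next 142) and Atp5b (1590, next 1940). Mouse 6 of the 20 week HFD group was the lowest for Cox5a (95.1 CPM, next 109). For Cox8b, mouse 3 of the 20 week CD group was the highest (32.9 CPM, next 9.68) and mouse 8 of the 34 week CD group the lowest (6.66 CPM, next 13.6).

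The diet difference changed from 8 to 34 weeks for 10 of the members named by the rule, always downward (limma, log2 scale): Sdhd -0.40, Uqcrq -1.05, Cox5a -0.60, Cox5b -0.52, Cox6a1 -0.57, Cox7a1 -1.58, Cox7a2 -0.59, Cox8a -0.58, Atp5g3 -0.69 and Atp5l -0.66. From 20 to 34 weeks it changed for Cox7a1 (-1.31).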

How the results depend on the processing

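The counts of called members (of 41) depended on scaling and on how the spread was estimated. For HFD against CD at 20 weeks, 21 members were called. TMM gave 37, median-of-ratios 35, edgeR 37, DESeq2 35, array weights 36, the mice of that time alone 36 and the macrophage covariate 3. Most were lower. In the same order, 31.6, 28.6, 31.8, 29.6, 26.3, 22.5 and 10.2% of all genes were lower in those fits. At 34 weeks, 28 were called. Array weights gave 6, the mice of that time alone 3 and the macrophage covariate 1, all lower. Of all genes, 15.1, 7.39 and 3.47% were lower in those fits, so these counts were near those of all genes. At 8 weeks, 3 became 14 with array weights (10 higher, 4 lower), where 43.2% of all genes were higher and 24.7% lower. The macrophage covariate gave 6 (all higher, of which only Cox7a1 was among the 3), where 22.8% of all genes were higher. The mice of that time alone gave 12 (8 higher, 4 lower), where 36.3% of all genes were higher and 19% lower. These counts were all below those of all genes. For the change of the diet difference from 8 to 34 weeks, 17 became 10 with TMM and median-of-ratios, 11 with no filter and with edgeR, and 27 with the replicate block. All were downward. Of all genes, 14.6, 15.2, 8.11, 15.5 and 16.6% were downward in those fits. From 20 to 34 weeks, 1 (lower) became 7 with array weights, of which 6 were upward, and 2 (both lower) with the block. Of all genes, 10.2% were upward and 22.7% downward with array weights, and 5.71% were downward with the block. From 8 to 20 weeks, 0 became 33 with array weights and 1 with DESeq2, all downward, where 16.8% and 4.26% of all genes were downward. For HFD 34 against 8 weeks, 4 became 2 with no filter, 7 with array weights and 8 with the macrophage covariate. All were higher, where 19.5, 33.2 and 11.5% of all genes were higher. For 20 against 8 weeks, 0 became 15, 2 and 19 on CD with array weights, DESeq2 and the macrophage covariate, and 16 on HFD with array weights. Those on CD were higher, where 6.25, 3.22 and 2.86% of all genes were higher. Those on HFD were lower, where 29.3% of all genes were lower. The cause of these shifts was not tested. Leaving out 1 mouse gave 2 to 4 at 8 weeks, 12 to 27 at 20 weeks, 10 to 32 at 34 weeks, 0 to 1 (CD 20 against 8), 31 to 37 (CD 34 against 8), 0 to 1 (HFD 20 against 8), 2 to 6 (HFD 34 against 8), and 0 to 1, 9 to 25 and 1 to 2 for the 3 changes of the diet difference. Atp5a1 at 20 weeks went from -0.2661 to 0.01324 with the macrophage covariate. Same-numbered mice correlated between -0.509 and 0.529 over 18 pairs of 1 CD and 1 HFD mouse and exceeded 0.1 in 8. The replicate numbers were therefore not used as pairs, but these values cannot exclude a batch shared by mice of 1 number. With the replicate block, 33 members were lower at 34 weeks, where 15.7% of all genes were lower.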
